A study of Homo sapiens with 15 samples.

Results

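The MYC and prostate cancer risk region of chromosome band 8q24 was taken as every pair of loop anchors on chromosome 8 with both anchors between 127.5 and 129.5 Mb of the human genome build hg19. Of the 505995 different anchor pairs that were mapped in LNCaP cells, 836 (0.165%) met this rule, and a further 109 pairs with a single anchor inside were left out. LNCaP is an established prostate cancer cell line that carries the androgen receptor and responds to androgen. The cells were kept for 3 days in hormone-depleted medium, made with charcoal-stripped serum, and then received vehicle (EtOH, called 0 m) or 10 nM DHT, the androgen dihydrotestosterone, which was given for 30 m, for 4 h, for 16 h or, at the longest, for 72 h. HiChIP, which counts ligated read pairs from chromatin pulled down with an antibody, was done against H3K27ac, a mark of active enhancers and promoters, in 10 samples (2 per time) and against H3K4me3, a mark of active promoters, in 5 samples (1 per time). Each pair had 1 deposited value per mark and time, so there were no replicate values, no test between replicates was possible, and every 95% interval given here covers counting error in the recovered read pairs only.

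MYC encodes a transcription factor that drives growth and is commonly amplified in cancer. It lies between a long upstream stretch with few protein-coding genes, the gene desert, and the long non-coding RNA gene PVT1 downstream. The desert holds many inherited prostate cancer risk variants and enhancers that are known to contact MYC over large distances. It is crossed by transcripts of PCAT1, a prostate cancer associated long non-coding RNA, and of several CASC genes, while LRATD2 lies at its far end. HiChIP signal rises both with the frequency of contact and with the amount of the mark at the anchors, and these cannot be told apart in such data.

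The read pairs recovered over all anchor pairs lay between 2475168 and 4308555 for the H3K27ac times and between 2153262 and 10675614 for the H3K4me3 times. The 836 pairs of the region held 5604 to 8419 of them for H3K27ac and 1926 to 10095 for H3K4me3. A member had a median of 4 read pairs in the H3K27ac data at 0 m, and 34 to 154 members per H3K27ac time and 218 to 464 per H3K4me3 time had none. Contact of single weak pairs was therefore read mainly in sums, and where pairs that were higher or lower are counted, most of them had few read pairs. Pairs also share anchors, so such counts are not counts of separate results. The share over the whole series is given for 2-fold differences only. Contact is given throughout in the deposited unit, which is the read pairs of a mark scaled among its 5 times. Comparison between times of a mark rests on that scaling, and some changes differ with libraries scaled to equal totals, as given below. All changes from 0 m of a mark share the same 0 m data. Where 5 values stand in a row, they follow the order of the times from 0 m to 72 h.

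The region was a region of H3K27ac loops. Of its pairs, 604 (72.2%) had been called with H3K27ac alone, against 44.96% of all pairs, 131 (15.7%) with H3K4me3 alone, against 41.4%, and 101 (12.1%) with both. Pairs were also longer than elsewhere, with a median of 327.5 kb against 175 kb, and 295 of them (35.3%) spanned at least 500 kb, against 17.2% of all pairs. The longest spanned 1730 kb. Of 30 annotated gene starts, 24 had an anchor within 2.5 kb, and these took part in 401 pairs. The remaining 435 pairs (52.0%) joined anchors that lay at no gene start and are called gene-desert pairs here, also where they lie inside PVT1 or another long transcript. No pair joined the MYC start directly to the PVT1 start.

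The 836 pairs used only 260 anchors, and 5 anchors took part in 384 of the pairs (45.9%). The first was the MYC start at chr8:128747001-128748000, which holds the annotated first base of the gene, with 123 pairs. The second was the PVT1 start at chr8:128807001-128808000, with 96 pairs. The third, at chr8:128032001-128033000 with 72 pairs, lay 715 kb upstream of MYC in an annotated PCAT1 exon and at no gene start. It was 7.1 kb past the start of the short PCAT1 transcript and is called the PCAT1-exon anchor below. The fourth, at chr8:128962001-128963000 with 57 pairs, was at the start of the non-coding gene LINC02912 inside PVT1, and the fifth, at chr8:128867001-128868000 with 45 pairs, was in a PVT1 exon 120 kb downstream of MYC. By contrast, 95 anchors had a single pair.

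In the H3K27ac data, long contacts upstream of MYC fell after DHT while those downstream did not. This split at the MYC start was chosen after the data were seen. The 263 pairs of at least 20 kb with both anchors upstream of the MYC start had a summed contact of 417, 225, 384, 252 and 178. The sum was lower than at 0 m at each later time, came back close to it at 4 h, and was lowest at 72 h. The log2 change was -0.89 at 30 m (95% interval -1.002 to -0.781) and -0.12 at 4 h (-0.22 to -0.02). By 16 h it was -0.73 (-0.84 to -0.61), and by 72 h -1.23 (-1.36 to -1.09). At 72 h, 214 of the 263 pairs were lower than at 0 m and 45 were higher, and of the 15 with at least 20 read pairs over both times 13 were lower and 2 higher. Of these 15, 8 were at most 0.5-fold, against 8.71% of all pairs of the series with that length and that many read pairs.

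The 216 pairs of at least 20 kb with both anchors downstream had a summed H3K27ac contact of 310.3, 344, 319, 355 and 369. The sum was slightly higher at 72 h, with a log2 change of 0.25 (0.14 to 0.37), and 115 pairs were higher and 100 lower. With libraries scaled to equal totals this change was 0.08 (-0.04 to 0.20), an interval that held 0, and the change of the upstream pairs was -1.40 (-1.53 to -1.26). The upstream change was below the downstream change, with a log2 difference of -1.04 at 30 m (-1.20 to -0.88), of -0.92 at 16 h (-1.08 to -0.76) and of -1.48 at 72 h (-1.66 to -1.30). The 184 pairs that spanned the MYC start, with neither anchor at it, moved like the upstream pairs. Their H3K27ac contact was 150.5, 86.5, 129, 89.2 and 63.9, a log2 change of -1.23 at 72 h (-1.46 to -1.01), and their change differed from that of the upstream pairs by 0.01 (-0.25 to 0.27).

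**Figure D1:**
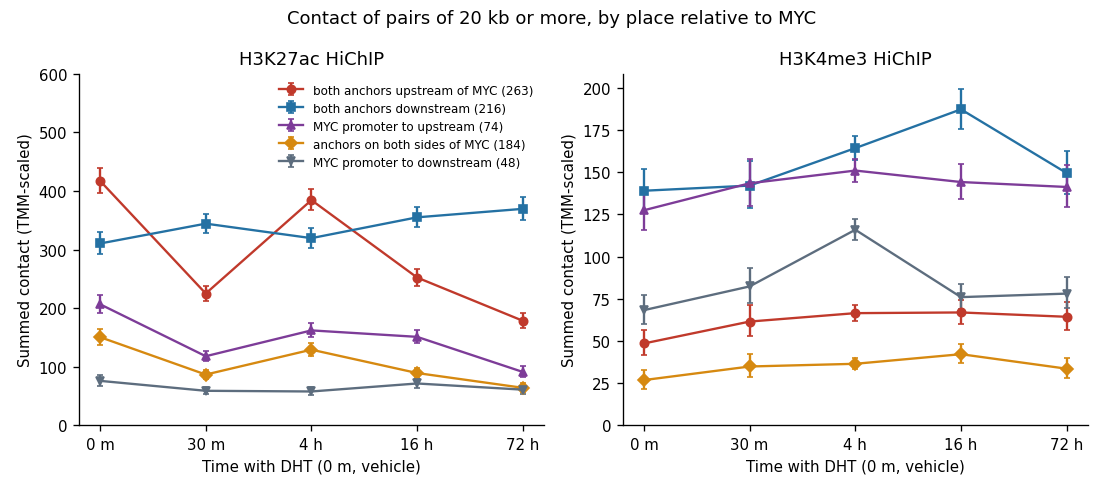
Summed contact (deposited unit, y axis) of pairs of at least 20 kb at each time of DHT (x axis) in the H3K27ac and H3K4me3 data, by place relative to the MYC start, with bars for the 95% counting interval. H3K27ac contact of the pairs upstream of MYC goes from 417 at 0 m to 178 at 72 h, while that of the downstream pairs stays between 310.3 and 369.

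The times after 0 m differed among themselves, in both directions. From 30 m to 4 h, H3K27ac contact rose by 0.77 (0.67 to 0.88) for the upstream pairs and by 0.58 (0.40 to 0.75) for the spanning pairs, and that of the downstream pairs changed by -0.11 (-0.21 to -0.01). From 4 h to 16 h the changes were -0.61 (-0.71 to -0.50), -0.53 (-0.72 to -0.35) and 0.15 (0.05 to 0.25), in the same order. Between 16 h and 72 h, H3K27ac contact changed by -0.50 (-0.64 to -0.36) for the upstream pairs, by -0.48 (-0.71 to -0.25) for the spanning pairs and by 0.06 (-0.05 to 0.16) for the downstream pairs. In H3K4me3 the comparison of 16 h and 72 h gave -0.06 (-0.30 to 0.19) for the upstream pairs, -0.33 (-0.66 to -0.003) for the spanning pairs and -0.33 (-0.48 to -0.17) for the downstream pairs. From 0 m on, the upstream pairs had a summed H3K4me3 contact of 48.5, 61.5, 66.5, 66.9 and 64.3, so that it was higher at each later time, with a log2 change of 0.41 at 72 h (0.12 to 0.70). The change of the upstream pairs was lower in H3K27ac than in H3K4me3 at 72 h, with a difference of -1.63 (-1.96 to -1.31).

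**Figure D2:**
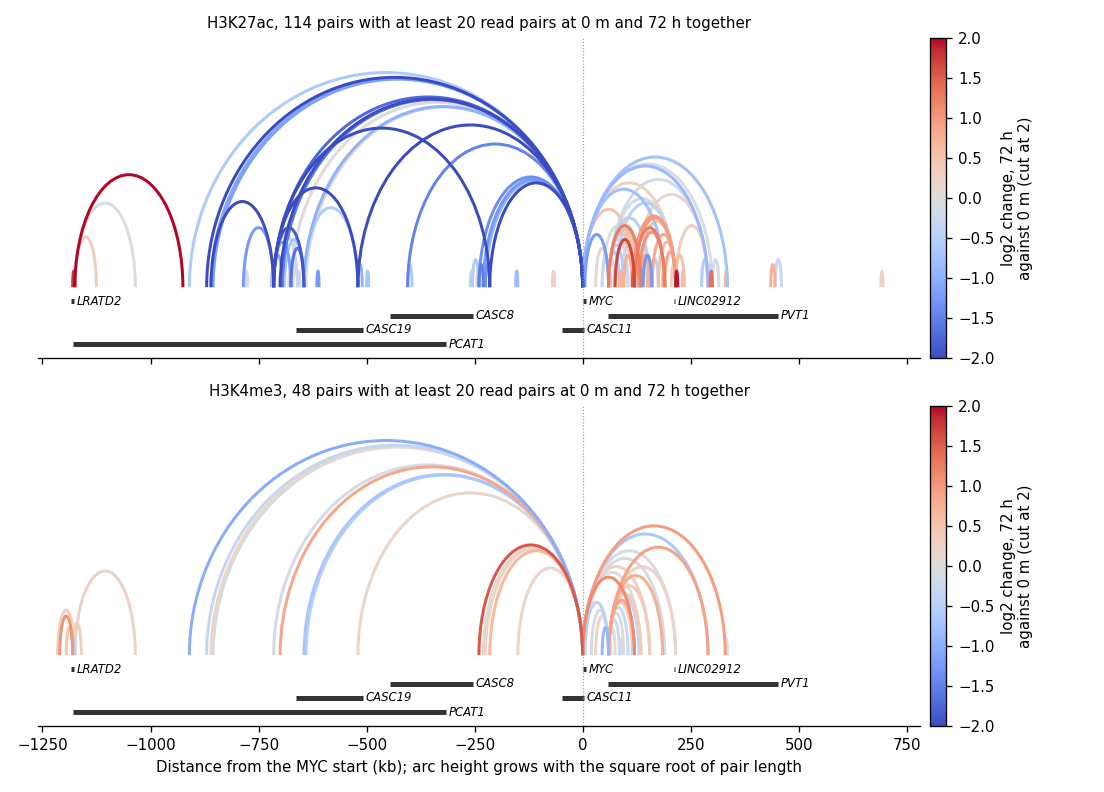
Arcs join the anchors of pairs with at least 20 read pairs over 0 m and 72 h (114 in the H3K27ac data, 48 in the H3K4me3 data) against distance from the MYC start in kb, coloured by the log2 change from 0 m to 72 h, with the annotated genes drawn below. Blue arcs (lower at 72 h) fan out from the MYC start to the upstream anchors in the H3K27ac panel, while red ones lie mostly within PVT1 and at LRATD2.

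Part of this movement was shared by pairs of like length and base composition elsewhere. Pairs outside the region with the same lengths as the upstream pairs changed by -0.09 at 30 m and -0.06 at 72 h in H3K27ac. The 5 kb bins of the upstream pairs had a mean GC content of 40.6%. Pairs elsewhere of the same length and GC class changed by -0.60 at 30 m and -0.16 at 4 h, and then by -0.30 at 16 h and -0.32 at 72 h. The upstream pairs were thus nearer to their matched value at 30 m than at 72 h, where -1.23 stood against -0.32. For the downstream pairs, the observed 0.25 at 72 h stood against 0.09. The part of base composition in the difference that remains was not tested.

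**Figure D3:**
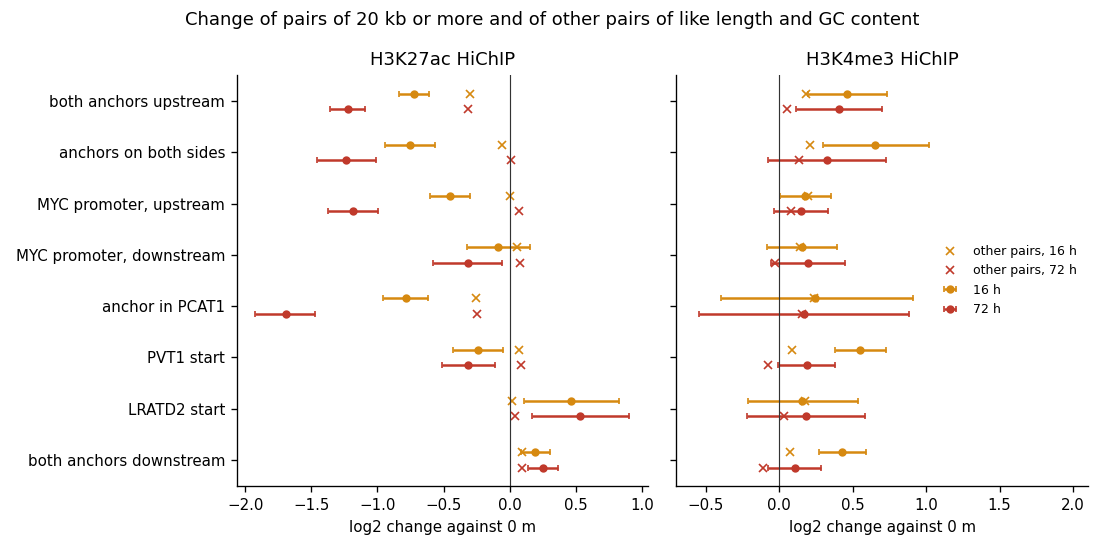
Log2 change of summed contact from 0 m (x axis) in the H3K27ac and H3K4me3 data for groups of pairs in the region at 16 h and 72 h, with 95% counting intervals, and crosses for the change of other pairs of the series with like length and GC content. In the H3K27ac panel the upstream, spanning and MYC-upstream groups lie left of their crosses at 72 h, while the downstream group lies right of its cross.

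Genomic windows of the same width give the spread among regions. Of 1018 windows of 2 Mb with at least 500 read pairs over both times, 56 had a lower log2 change of H3K27ac contact at 72 h than the region (-0.60 for its 785 pairs of at least 20 kb). The middle window was at -0.02. At 30 m the region was at -0.48 and 160 of 1054 windows were lower, and at 16 h it was at -0.34 and 153 of 1044 were lower. In H3K4me3 at 72 h the region was at 0.19 and 820 of 1011 windows were lower.

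The level of contact at large distances stood out before DHT. At 0 m, the 242 pairs of at least 500 kb and under 1 Mb had a mean H3K27ac contact of 1.23, against 0.369 for other pairs of that length in the series, a ratio of 3.34. At 72 h the ratio was 1.56. The same pairs had a ratio of 1.27 at 0 m and 1.37 at 72 h in H3K4me3. The region held a smaller share of pairs called with H3K4me3 alone than the series did. Among pairs of the H3K27ac set only, the ratio was 1.91 at 0 m (1.79 to 2.04) and 0.915 at 72 h (0.830 to 1.01).

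Summed over all 836 pairs these movements partly cancelled. Total H3K27ac contact of the region was 1647, 1400.1, 1604, 1787 and 1490.2, a log2 change of -0.23 at 30 m (-0.28 to -0.18), 0.12 at 16 h (0.07 to 0.17) and -0.14 at 72 h (-0.20 to -0.09). Total H3K4me3 contact was 565, 658, 799.8, 756 and 626, and was higher than at 0 m at every time, with a log2 change between 0.15 and 0.50. The H3K27ac rise at 16 h turned into a fall of -0.34 without the 51 pairs shorter than 20 kb, and into one of -0.13 when libraries were scaled to equal totals. Among the pairs of the H3K4me3 set, the fall at 30 m was absent (0.057, -0.025 to 0.139) and that at 72 h turned into a rise of 0.22 (0.13 to 0.30).

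The MYC start lost H3K27ac contact with the desert and kept its H3K4me3 contact. MYC lies on the forward strand, with its annotated start at position 128747680. Its 74 upstream pairs had a summed H3K27ac contact of 207, 118, 162, 151 and 91.0. All later times were below 0 m, with a log2 change of -0.81 (-0.97 to -0.65) at 30 m and -1.18 (-1.37 to -0.99) at 72 h. At 72 h, 57 of the 74 pairs were lower (15 of the 16 with at least 20 read pairs). Of these 16, 11 were at most 0.5-fold, against 8.71% of all pairs of at least 20 kb with that many read pairs. In H3K4me3 the 74 pairs had 127, 143, 151, 144 and 141, a change of 0.15 at 72 h (-0.04 to 0.33). The difference between the marks was -1.33 at 72 h (-1.60 to -1.06).

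Pairs elsewhere of like length and GC content as the upstream MYC pairs changed by -0.05 at 30 m and 0.07 at 72 h in H3K27ac. The 48 pairs of at least 20 kb from the MYC start to downstream anchors had an H3K27ac contact of 75.8, 58.8, 57.7, 71.3 and 60.8, a change of -0.32 at 72 h (-0.58 to -0.06). The upstream change was lower than the downstream change, with a difference of -0.44 at 30 m (-0.73 to -0.16), of -0.36 at 16 h (-0.65 to -0.08) and of -0.86 at 72 h (-1.19 to -0.54), but not at 4 h (0.04, -0.25 to 0.34). Among its pairs of at least 20 kb, the upstream share of H3K27ac contact of the MYC start was 73.2%, 66.7%, 73.7%, 67.9% and 60.0%. With the 5 kb pair to the CASC11 start counted as downstream, it was 64.1% at 0 m and 45.3% at 72 h. In H3K4me3 the share among pairs of at least 20 kb was 65.1% at 0 m and 64.4% at 72 h, with 56.6% at 4 h as the lowest.

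By its mean over the 5 times, the strongest long contact of MYC in H3K27ac was with the PCAT1-exon anchor 715 kb away. Its contact was 20.9, 9.0, 16.7, 18.3 and 6.32, from 71, 50, 78, 86 and 24 read pairs. It was low at 30 m and again at 72 h, with log2 changes of -1.21 (-1.77 to -0.67) and -1.72 (-2.46 to -1.04), while its changes at 4 h and 16 h had intervals that held 0. The H3K4me3 contact of this pair was 5.08, 4.78, 7.21, 2.90 and 4.67, and each of its intervals held 0.

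At 0 m the next strongest was with chr8:128532001-128533000, 215 kb upstream. It had 13.2, 4.68, 9.40, 6.58 and 2.63 in H3K27ac, so that it was lowest at 72 h, with a change of -2.33 (-3.48 to -1.32). In H3K4me3 it had 4.51, 5.81, 7.37, 6.19 and 7.15, with 0 m the lowest. The contact of MYC with chr8:128227001-128228000, an intron shared by PCAT1 and CASC19 520 kb upstream, stayed between 6.30 and 9.70 up to 16 h and was 1.84 at 72 h (-2.40, -3.82 to -1.20).

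Other desert anchors moved at other times. MYC contact with chr8:128522001-128523000, 225 kb upstream in no gene, was 9.99, 3.24, 9.61, 8.92 and 5.26 in H3K27ac, and was lowest at 30 m. MYC contact with chr8:128102001-128103000, in an exon of the prostate cancer non-coding RNA gene PRNCR1 and at the start of the pseudogene ENSG00000224722, was 9.70, 5.76, 7.69, 14.6 and 5.00. It was highest at 16 h, although the change from 0 m there (0.60, -0.02 to 1.24) had an interval that held 0. The neighbouring anchor at 128107001 had 5.29, 5.40, 8.33, 9.34 and 5.26 and was level with 0 m at 72 h, with a change of -0.01 and an interval that held 0.

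Farther out, MYC contact with chr8:127887001-127888000, 860 kb upstream, was 7.35, 4.50, 5.13, 4.25 and 3.42 in H3K27ac, with a change of -1.10 at 72 h (-2.19 to -0.08). Downstream, contact with the LINC02912 start was 6.46, 6.30, 3.85, 11.0 and 7.63, and contact with the PVT1-exon anchor at 128867001 was 5.58, 6.84, 3.42, 5.94 and 7.89. Both were lowest at 4 h and above 0 m at 72 h, but their intervals at 72 h held 0. Among the 10 strongest H3K27ac pairs of MYC, 7 led to upstream anchors, and all of these except that with 128107001 fell at 72 h with an interval below 0.

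**Figure D4:**
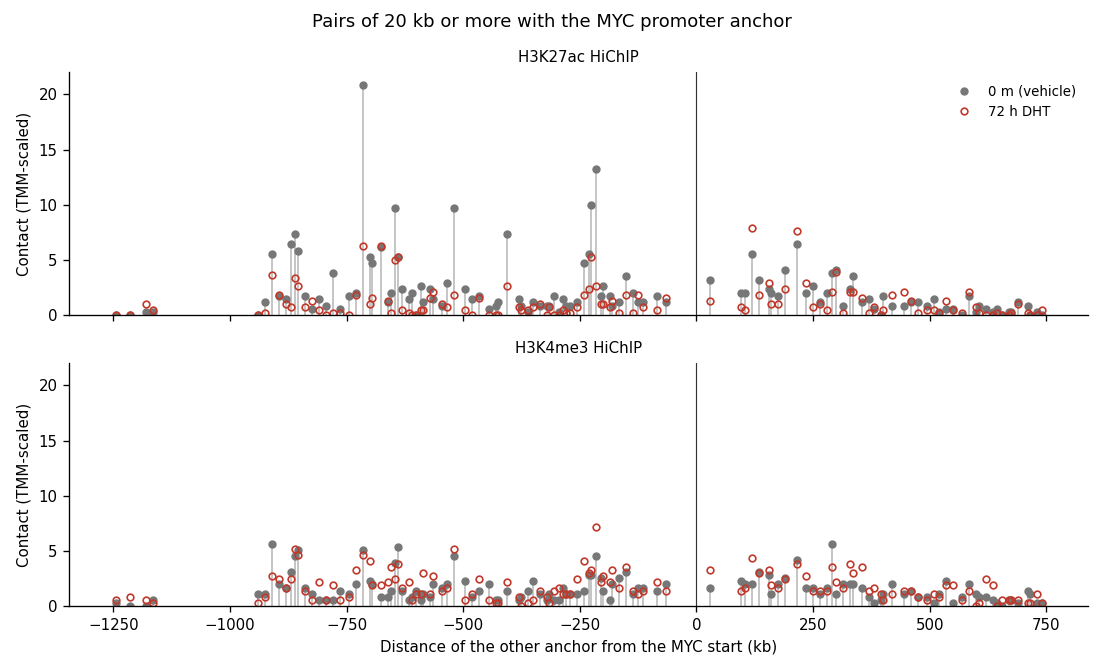
Contact (deposited unit, y axis) of the 122 MYC pairs of at least 20 kb against the distance of the other anchor from the MYC start in kb (x axis), for H3K27ac and H3K4me3, with filled grey points for 0 m and open red points for 72 h. In H3K27ac the upstream peak at -715 kb goes from 20.9 to 6.32, while in H3K4me3 the points of both times overlap over most of the range.

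The loss was spread over the desert. In steps of 200 kb from 127700001 to 128700000, H3K27ac contact of the MYC start at 0 m and 72 h was 29.7 and 13.7 in the first segment, 53.2 and 21.8 in the second, 47.6 and 21.6 in the third, 22.9 and 8.95 in the fourth, and 52.6 and 23.4 in the last, so it was lower in each. In H3K4me3 the same segments had 24.3 and 20.3, 21.4 and 29.7, 30.7 and 32.2, 18.6 and 16.2, and 31.6 and 40.7, so that those with 24.3 and with 18.6 at 0 m were lower at 72 h and the others higher. Downstream, between 128900001 and 129100000 inside PVT1, H3K27ac contact was 39.4, 28.4, 27.8, 37.8 and 30.8, with intervals below 0 at 30 m (-0.47, -0.81 to -0.13) and 4 h (-0.50, -0.86 to -0.14). Between 129100001 and 129300000, inside and beyond PVT1, it was 12.9 at 0 m and 11.8 at 72 h. Only the segment that holds the MYC and PVT1 starts and the shortest MYC pair, 128700001 to 128900000, was higher in H3K27ac at 72 h than at 0 m among those with a contact over 2, with 55.8 and 61.6. Its change of 0.14 (-0.14 to 0.43) had an interval that held 0, and most of its contact at both times was the shortest pair.

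That shortest pair joined the MYC start to the next bin, at the start of CASC11, a non-coding gene on the opposite strand. Its H3K27ac contact was 39.7, 43.2, 31.2, 62.4 and 49.2, and its H3K4me3 contact was 36.7, 58.1, 77.3, 77.3 and 44.8. H3K27ac was highest at 16 h and H3K4me3 at 4 h and 16 h, with changes at 16 h of 0.65 (0.36 to 0.96) and 1.08 (0.79 to 1.37). Other 5 kb pairs of the series changed by 0.68 and 0.26 at 16 h, so the H3K27ac rise was near that of its length. Its share of the H3K27ac contact of MYC was 12.3% at 0 m (exact binomial 95% interval 10.4 to 14.4) and 24.5% at 72 h (21.5 to 27.7).

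Over all 123 pairs, the summed contact of the MYC start was 322, 219.9, 251, 285 and 201 for H3K27ac, against 232, 284, 344, 297 and 264 for H3K4me3. The changes at 72 h were -0.68 (-0.81 to -0.55) and 0.18 (0.05 to 0.32). With anchors within 5000 bp of the start, the H3K4me3 change was 0.12 (-0.005 to 0.25), an interval that held 0. At 0 m H3K27ac contact of MYC was 1.39 times the H3K4me3 contact, and at 72 h it was 0.761 times. The scaling of each mark is its own, so only the movement of this ratio is comparable. For gene-desert pairs the ratio was 11.8 at 0 m and 8.60 at 72 h.

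The PCAT1-exon anchor itself had lower H3K27ac contact at 72 h than at 0 m in 64 of its 72 pairs, and in all 10 of those with at least 20 read pairs. Of these 10, 8 were at most 0.5-fold, against 6.61% of all pairs of the series with that many read pairs. The 72 pairs had a summed H3K27ac contact of 223, 109, 179, 157 and 78.9, a change of -1.496 at 72 h (-1.694 to -1.302). Without its single pair under 20 kb the change was -1.70 (-1.92 to -1.47), against -0.25 for other pairs of like length and GC content. Its H3K4me3 contact was low, with 9.87, 10.9, 14.2, 11.4 and 11.3, and no change had an interval beyond 0. Contact with the PRNCR1 anchor at 128102001 went from 16.5 to 5.22 at 30 m, was 11.3 at 4 h and 12.7 at 16 h, and was 4.47 at 72 h (-1.88, -2.76 to -1.07). Contact with the anchor at 128227001 was 12.9, 3.78, 6.84, 5.10 and 2.89, and stayed below 0 m from 30 m on. Contact with 128532001, which also pairs with MYC, was 9.99, 1.98, 7.69, 5.10 and 1.32.

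Of the next anchors by number of pairs, 3 that lie upstream of MYC at no gene start also fell. They lie outside the 5 anchors chosen by number of pairs and were named after their values were seen. The anchor at 128227001 (42 pairs) had a summed H3K27ac contact of 88.4, 41.2, 74.4, 40.8 and 26.6, a change of -1.73 at 72 h (-2.07 to -1.40). The anchors at 128507001 (41 pairs) and 128522001 (40 pairs), both in no gene, had 72.3 and 71.4 at 0 m, 81.0 and 75.2 at 4 h, and 27.1 and 26.1 at 72 h. Each of the 3 was low at 30 m, nearer to 0 m at 4 h and lowest at 72 h. These sums share pairs with each other and with the MYC and PCAT1-exon sums, so they are not independent. The PVT1-exon anchor at 128867001 went the other way, with a summed H3K27ac contact of 131, 166, 124, 261 and 226, a change of 0.79 at 72 h (0.62 to 0.96), or 0.26 (0.02 to 0.50) in its pairs of at least 20 kb.

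PCAT1 needs its starts told apart. As annotated, the gene begins at position 127568568, beside the LRATD2 start on the opposite strand at 127570723, and runs to 128431295 with 31 transcript starts. The start of its short transcript lies inside, at 128025399. The 16 pairs at the gene start had a summed H3K27ac contact of 31.7, 75.0, 32.0, 122 and 102, which was high at 30 m, 16 h and 72 h, with changes of 1.24 (0.93 to 1.56), 1.94 (1.64 to 2.25) and 1.69 (1.38 to 2.01). At 4 h it was level with 0 m. Of this sum, 72.0% to 89.0% came from a single 5 kb pair that joins the bins of the PCAT1 and LRATD2 starts, so the data do not separate these genes.

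That pair had an H3K27ac contact of 25.6, 57.6, 23.1, 108 and 88.7, from 87 to 510 read pairs, and an H3K4me3 contact of 34.1, 46.1, 72.5, 38.3 and 23.9. H3K27ac was highest at 16 h and H3K4me3 at 4 h, and at 72 h the changes had opposite signs, 1.79 (1.45 to 2.15) and -0.51 (-0.93 to -0.10). Without it, the other PCAT1 start pairs changed by 1.12 at 16 h and 1.15 at 72 h in H3K27ac. The next pairs were weak. Contact of the PCAT1 start with chr8:127552001-127553000 was 1.18, 4.50, 2.14, 3.40 and 3.95 in H3K27ac, and with chr8:127822001-127823000 it was 1.18, 2.34, 1.07, 1.91 and 1.84.

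The short transcript start differed from the gene start at 30 m, 16 h and 72 h. In H3K27ac at 16 h the gene start changed by 1.94 (1.64 to 2.25) and the short transcript start by 0.14 (-0.15 to 0.43). Its 11 pairs had a summed H3K27ac contact of 48.5, 28.8, 41.0, 53.5 and 22.4, which was low at 30 m (-0.75, -1.07 to -0.43) and at 72 h (-1.12, -1.51 to -0.73). The 5 kb pair of this start with the PCAT1-exon anchor gave 36.1, 23.4, 31.6, 48.6 and 21.3 of it. In H3K4me3 these pairs held 2 to 23 read pairs per time, too few for a comparison.

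LRATD2, a protein-coding gene at the far end of the desert, had 37 pairs, with a summed H3K27ac contact of 55.2, 97.3, 45.9, 149 and 132. The change was 1.43 at 16 h (1.20 to 1.67) and 1.252 at 72 h (1.007 to 1.502). Most of it was the pair with the PCAT1 bin, but its 36 pairs of at least 20 kb also had 29.7, 39.8, 22.9, 41.0 and 42.9, a change of 0.53 at 72 h (0.16 to 0.90). Its contact with chr8:127822001-127823000, 250 kb away, was 1.18, 3.24, 1.28, 3.18 and 4.74. Of the 33 members of at least 100 kb with at least 20 read pairs, only this 1 (3.03%) was 2-fold higher at 72 h. Over all such pairs of the series the share was 15.8%, so the region had fewer long gains than the background. This LRATD2 pair was named after its values were seen.

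At 72 h, H3K27ac contact of the PVT1 start changed less than that of MYC. Its 96 pairs had a summed H3K27ac contact of 167, 148, 166, 159 and 153, a change of -0.13 at 72 h (-0.30 to 0.04), and an H3K4me3 contact of 149, 175, 197, 223 and 164, with a change of 0.58 at 16 h (0.43 to 0.73). In H3K27ac the other times were within counting error of 0 m except 30 m (-0.17, -0.33 to -0.01). With equal library totals, however, the change was -0.32 at 16 h (-0.48 to -0.16) and -0.30 at 72 h (-0.47 to -0.13), and without its highest pair it was -0.29 at 72 h (-0.48 to -0.10). The change of MYC was below that of PVT1 in H3K27ac at 72 h, with a difference of -0.55 (-0.77 to -0.33), while the difference of -0.11 at 16 h had an interval (-0.31 to 0.09) that held 0. In H3K4me3 PVT1 rose more than MYC at 16 h, with a difference of -0.22 (-0.42 to -0.03), and they differed by 0.05 at 72 h (-0.17 to 0.27).

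The strongest PVT1 pair, with the next bin 5 kb into the gene, had 27.3, 28.4, 26.1, 35.2 and 38.4 in H3K27ac, with a change of 0.49 at 72 h (0.11 to 0.88), against 0.50 for other 5 kb pairs of the series, and 20.6, 25.6, 36.5, 38.7 and 23.4 in H3K4me3. The pair with the PVT1-exon anchor at 128867001, 60 kb away, had 7.64, 6.66, 5.56, 9.55 and 10.8, and its interval at 72 h held 0. PVT1 contact with the bin next to MYC, at the CASC11 start 55 kb away, was 6.76, 7.74, 6.20, 7.22 and 2.89 in H3K27ac. It was level up to 16 h and low at 72 h, with a change of -1.22 (-2.41 to -0.13). In H3K4me3 it was 14.1, 13.3, 14.9, 13.9 and 10.2, the strongest PVT1 pair of at least 20 kb in that mark.

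The other starts moved in both directions. LINC02912, inside PVT1, had 57 pairs and an H3K27ac contact of 129.6, 159, 124, 204 and 198, a change of 0.61 at 72 h (0.44 to 0.79). Without its 5 kb pair the change was 0.25 (0.05 to 0.44), and 29 of its pairs were higher and 28 lower. ENSG00000224722, a processed pseudogene whose start lies beside the PRNCR1 anchor, had 30 pairs and 102, 51.3, 94.9, 107 and 51.0, a change of -0.99 at 72 h (-1.26 to -0.74). CASC8, a long non-coding RNA gene of the desert, had 7 pairs and 16.5, 7.56, 14.7, 8.92 and 8.95, a change of -0.88 at 72 h (-1.54 to -0.24).

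Near MYC, CASC11 had 11 pairs and 55.8, 64.4, 50.6, 84.7 and 67.1, with a rise at 16 h (0.60, 0.35 to 0.86) that was mostly its 5 kb pair with MYC. Without that pair the change was 0.46 (-0.02 to 0.96). ENSG00000286010, a non-coding gene upstream of MYC, had 8 pairs and 10.6, 11.5, 13.0, 9.13 and 15.3, and MIR1207, a microRNA gene inside PVT1, had 7 pairs and 10.3, 8.10, 11.3, 12.1 and 10.3. Neither had a change in H3K27ac with an interval beyond 0. The remaining starts with a pair had 1 to 6 pairs each. POU5F1B, a coding retrogene of the desert, had none.

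Gene-desert pairs divided by position as well. Summed over all 435, H3K27ac contact was 805, 666, 837, 843 and 695, a change of -0.21 at 72 h (-0.29 to -0.14), which hid opposite movements. The 200 desert pairs with both anchors upstream of MYC had 416, 223, 412, 278 and 186, a change of -1.16 at 72 h (-1.30 to -1.03), against -0.13 for other pairs of like length and GC content. The 135 with both anchors downstream had 312, 393, 352, 518 and 475, a change of 0.61 (0.50 to 0.72), against 0.32. Of these, the 116 of at least 20 kb changed by 0.21 (0.03 to 0.38), against 0.10, so most of the downstream rise lay in shorter pairs. The 100 that spanned MYC had 77.3, 49.7, 72.4, 46.9 and 33.9. In H3K4me3 all 435 had 68.0, 63.9, 82.5, 95.3 and 80.8.

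The strongest desert pairs in H3K27ac joined neighbouring bins. The pair of 128862001 and 128867001, inside PVT1, had 29.1, 56.5, 39.3, 112 and 83.9, with changes of 1.94 at 16 h (1.63 to 2.27) and 1.53 at 72 h (1.20 to 1.87), above the 0.68 and 0.50 of other 5 kb pairs. In H3K4me3 it had 4.23, 4.44, 4.28, 3.48 and 3.02 and no interval beyond 0. The pair of 128882001 and 128887001, also in PVT1, had 18.8, 21.6, 18.8, 38.9 and 34.7. The pair of 128027001 and 128032001, at the PCAT1-exon anchor, had a mean of 32.2 over the 5 times and is also a desert pair by this rule. Its values, given above with the short PCAT1 transcript start, were lower at 72 h than at 0 m. These pairs were all highest at 16 h. The pair at the LINC02912 start (128962001 and 128967001) is not a desert pair and was named for its change at 16 h, so that its rise there follows from the choice. It had 17.0, 36.7, 21.4, 66.5 and 65, a change of 1.96 at 16 h (1.55 to 2.39).

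Summed over the region, short pairs rose where long pairs fell. The 51 pairs shorter than 20 kb had a summed H3K27ac contact of 486, 568, 551, 869 and 727, a change of 0.84 at 16 h (0.75 to 0.92), where other pairs of these lengths changed by 0.56. At 72 h the values were 0.58 and 0.42. The 28 pairs of 5 kb changed by 1.02 at 16 h against 0.68 for others of that length, but a few strong pairs carried the excess. Without the 3 with the highest mean contact over the 5 times the change was 0.74 (0.63 to 0.86), and without the highest 5 it was 0.63 (0.50 to 0.76). That mean includes 16 h, so part of this drop follows from how the pairs were chosen. The median of the 27 tested was 0.49, against 0.43 for all such pairs tested. The 13 pairs of 10 kb and the 10 of 15 kb changed by 0.20 and 0.21, against 0.19 and 0.15.

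**Figure D5:**
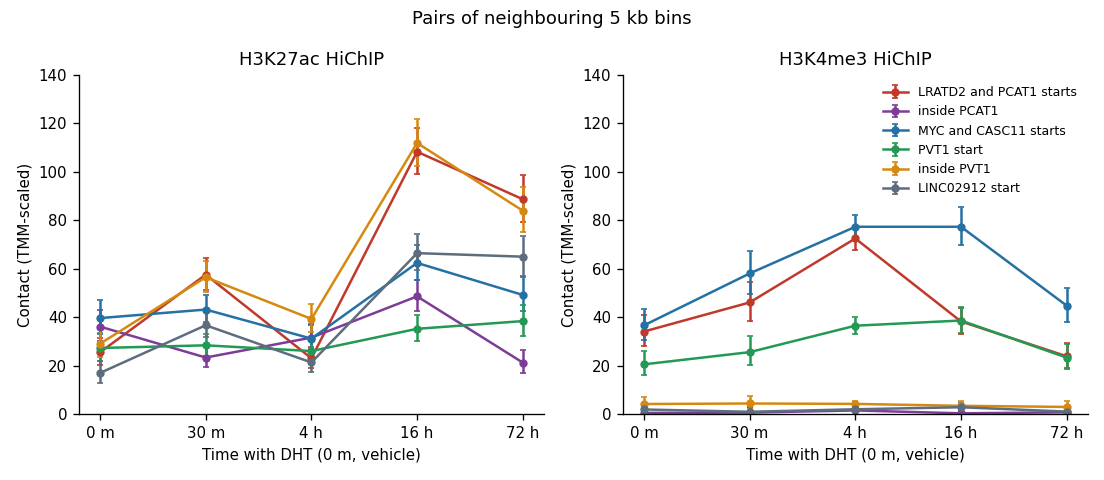
Contact (deposited unit, y axis) of 6 pairs of neighbouring 5 kb bins at each time of DHT (x axis), with 95% counting intervals. In H3K27ac the pair inside PVT1 goes from 29.1 to 112 at 16 h and the PCAT1 and LRATD2 pair from 25.6 to 108, while the pair at the PCAT1-exon anchor is at 36.1 at 0 m and 21.3 at 72 h.

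Single members were called where contact differed at least 2-fold from 0 m and at least 20 read pairs were present over both times. In H3K27ac at 72 h, 114 members could be tested. Of these 24 (21.1%) were lower and 10 (8.77%) higher, whereas over all pairs tested the shares were 6.61% lower and 15.4% higher. The lower share thus stood above the background and the higher share below it. At 30 m, 30 of 147 were lower (background 6.02%) and 9 higher (10.7%). At 4 h 6 of 147 were lower (3.02%) and 4 higher (7.02%), and at 16 h 17 of 145 were lower (5.9%) and 20 higher (18.3%). The balance at 16 h depended on the settings, with 30 lower and 9 higher at equal library totals, and 2 lower and 13 higher where 50 read pairs were required. That minimum left 6 lower and 5 higher at 72 h.

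The lower share at 72 h was above that of pairs of like length too. Among members of at least 20 kb, 21 of 70 (30.0%) were lower, against 8.71% of all such pairs tested, and among those of at least 100 kb 14 of 33 (42.4%), against 11.4%. The median log2 change of the tested members of at least 20 kb was -0.28, against 0.13 for all such pairs. Of the 24 lower members, 11 were pairs of the MYC start, out of 23 tested, and all 11 had their other anchor upstream. None of the 23 was higher. Of 57 members tested with both anchors downstream of MYC, 8 (14.0%) were higher, near the background of 15.4%, and 2 (3.51%) were lower, against 6.61%.

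H3K4me3 calls went mostly up. At 4 h 33 of 144 tested were higher (background 15.2%) and 3 lower (3.36%), and at 16 h 15 of 73 were higher (6.5%) and 0 lower (2.21%). At 30 m 3 of 40 were higher (3.15%) and 0 lower (3.79%). At 72 h 3 of 48 were higher (2.4%) and 1 lower (5.86%). Where 50 read pairs were required, 1 higher call was left at 16 h and 0 at 72 h.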

How the data were processed

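HiChIP of H3K27ac (10 samples) and H3K4me3 (5 samples) in LNCaP cells was grouped by mark and time from the labels. Reads had been trimmed with Trim Galore 0.5.0 and aligned to hg19 with HiC-Pro 3.1.0 and Bowtie2, according to the submitters' processing notes, and loops had been called by the authors in 5 kb bins on all times of a mark merged. The 10 deposited tables hold contact signal that the authors had scaled by TMM among the 5 times of a mark, with 1 value per pair and time. Whether both H3K27ac replicates entered a value is not given in the sources used here. Of the values of every table, 100% were whole multiples (tolerance 0.01) of the value of 1 read pair, so read pairs were recovered by division.

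Each pair was counted once. Gene starts came from Gencode 44 lifted to GRCh37, and a pair belonged to a start where at least 1 bp of an anchor lay within 2500 bp of it. Log2 changes compare summed contact with 0 m. Their 95% intervals are exact for a ratio of read pair counts, and shares have exact binomial ones. Neither covers variation between cultures, since each time has 1 value. Matched changes come from pairs outside the region in the same of 9 length and 5 GC classes. Calls need a 2-fold difference and 20 read pairs over both times. Named pairs were the 10 strongest of MYC, the 5 strongest of PVT1, PCAT1 and the desert, and the 5 highest and 5 lowest changes at 16 h among members with 100 read pairs, per mark, with the 5 anchors and 10 starts with the most pairs. Members and lists were chosen with earlier results of these data known. No sequence is printed. Recovery and intervals were tested on simulated data. The work used Python 3.11.15 with scipy 1.17.1, numpy 2.4.6 and pandas 2.3.3.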

Additional observations from a re-analysis of the deposited data

How the results depend on the processing

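Across 128 alternative values of 46 results at 16 h and 72 h, with the level against length also at 0 m, 54 stayed within the counting interval of the reported value (within 1.5 times for a count of calls), 68 left that range with the same direction or with no direction called, and 6 turned direction. No paired analysis was possible because the tables hold 1 value per time and carry no replicate number. The splits at the MYC start other than the upstream share of MYC contact, their equal-totals values, the values without pairs of 5 kb, the matched changes, the windows and the short PCAT1 transcript were chosen after seeing the data. Values are log2 changes from 0 m unless named otherwise, and the cause of a difference was not tested where the setting itself does not show it.

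Equal library totals shifted every H3K27ac change by -0.25 at 16 h and -0.17 at 72 h, and every H3K4me3 change by -0.14 and 0.13. For H3K27ac at 16 h and 72 h this gave -0.13 and -0.32 for the region, -0.43 and -0.85 for MYC, -0.32 and -0.30 for PVT1 and -0.18 and -0.38 for the desert. For H3K4me3 it gave 0.28 and 0.27 for the region and 0.22 at 16 h for MYC. Of 2-fold calls it left 9 higher and 30 lower in H3K27ac at 16 h, 1 lower in H3K4me3 at 16 h, and 6 higher and 0 lower in H3K4me3 at 72 h.

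Pairs of at least 20 kb gave, in H3K27ac at 16 h and 72 h, -0.34 and -0.60 for the region, -0.35 and -0.90 for MYC and -0.57 and -0.80 for the desert, and in H3K4me3 at 16 h 0.33 for the region and 0.17 for MYC. The upstream share of MYC contact at 16 h and 72 h became 67.9% and 60.0% for H3K27ac, and 65.5% and 64.4% for H3K4me3. The share of the pair with the highest mean over the 5 times became 8.21% and 4.16% (H3K27ac) and 2.81% and 3.26% (H3K4me3) for MYC, and 8.84% and 10.5%, and 8.34% and 7.84%, for PVT1. Making length class totals equal gave -0.097 and -0.31 for the region and -0.21 and -0.41 for the desert in H3K27ac, and 0.26 for the region and 0.16 for MYC in H3K4me3 at 16 h. The median of single pairs was 0.00056 and -0.072 for the region in H3K27ac.

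Without the highest pair, MYC changed by -0.35 and -0.90 in H3K27ac and by 0.17 in H3K4me3 at 16 h, and PCAT1 by 1.12 and 1.15 in H3K27ac and 0.54 in H3K4me3 at 72 h. With anchors within 5000 bp, PCAT1 changed by 1.4 and 1.24 in H3K27ac. The short transcript start gave 0.14 and -1.12 for H3K27ac, and -0.54 and 0.55 for H3K4me3. Pairs of the H3K4me3 set alone changed by 0.50 and 0.22 in H3K27ac, which turned the fall of the region at 72 h into a rise. The ratio of mean contact to that of all other pairs in H3K27ac at 0 m, 16 h and 72 h (1.89, 1.8 and 1.56) was 1.53, 1.46 and 1.28 in the H3K27ac set and 2.49, 2.84 and 2.44 in the H3K4me3 set. In H3K4me3 (0.65, 0.79 and 0.77) it was 1.0, 1.25 and 1.21 in the H3K4me3 set. With at least 50 read pairs, calls were 13 higher and 2 lower in H3K27ac at 16 h, 5 and 6 at 72 h, 1 higher in H3K4me3 at 16 h, and 0 and 0 at 72 h.

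At 30 m and 4 h, 57 of 88 alternative values stayed within the interval and 2 turned direction, both in H3K27ac at 30 m: the region in pairs of the H3K4me3 set (0.057) and the short PCAT1 transcript start (-0.75). The other 29 left the interval. Among them, MYC in H3K4me3 at 4 h (0.57) was 0.26 to 0.45, the region there (0.50) was 0.23 to 0.60, the desert there (0.28) was 0.04 with length class totals made equal and 0.055 with equal library totals, and the desert in H3K27ac at 30 m (-0.27) was -0.58 in pairs of at least 20 kb. Depth limits single pairs, since a member had a median of 2 to 5 read pairs in H3K27ac and 0 to 2 in H3K4me3, so most single pairs could not be compared.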
